A study of Mus musculus with 16 samples.

Results

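The transcripts described here are 10 mRNAs of the mouse mitochondrial genome, namely mt-Nd1, mt-Nd2, mt-Nd4, mt-Nd5, mt-Nd6, mt-Cytb, mt-Co1, mt-Co2, mt-Co3 and mt-Atp6. They were found in the deposited table by the Ensembl identifiers that GENCODE M21 pairs with these symbols, and they are 10 of the 13 protein-coding genes of that genome and 10 of 52636 gene identifiers in the table. Reads were assigned to 7 of the 10, and mt-Co2, mt-Co3 and mt-Atp6 were at 0 in all 16 libraries.

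The libraries came from CRAFR26, a mouse embryonic stem cell line that carries a c-RAF kinase construct switched on by 4-hydroxytamoxifen (4OHT), which activates ERK signalling through MEK. The line was kept in a medium with a GSK3 inhibitor, the MEK inhibitor PD03 and LIF, and for 48 h before the experiment the MEK inhibitor was replaced by 250 nM of the FGF receptor inhibitor PD17. The groups were 0h (PD17 alone), 2h and 4h (250 nM 4OHT for 2 or 4 h) and rev (4 h of 4OHT and then 2 h with the MEK inhibitor). Each group had 4 libraries, 2 from clone 4 and 2 from clone 8, made from total RNA after depletion of ribosomal RNA. All groups shared the construct and PD17, and no library had the solvent of 4OHT alone or 6 h of 4OHT without the MEK inhibitor. The labels do not say that the libraries of a clone came from separate cultures, so p-values measure the spread between libraries.

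The mitochondrial genome is transcribed from both strands as long precursors that also hold the mitochondrial rRNAs and tRNAs, and the tRNAs between the mRNAs mark where the precursors are cut. Its mRNAs encode core subunits of oxidative phosphorylation, and the remaining subunits of the same complexes are encoded in the nucleus. Of the members, mt-Nd1, mt-Nd2, mt-Nd4, mt-Nd5 and mt-Nd6 encode subunits of complex I (NADH dehydrogenase), mt-Cytb the cytochrome b of complex III, mt-Co1, mt-Co2 and mt-Co3 the catalytic core of complex IV (cytochrome c oxidase) and mt-Atp6 a membrane subunit of the ATP synthase. Stretches of the mitochondrial genome have also been copied into the nuclear chromosomes, where they are annotated as pseudogenes. A read from a transcript with an identical nuclear copy fits both places equally well.

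Total counts ranged from 2172651 to 12680303 per library with a median of 6502783. The 11 rRNA-related gene models found in the table, among them the mitochondrial rRNAs mt-Rnr1 and mt-Rnr2, held between 42.0% of all counts in 4h clone 4 replicate 1 and 80.4% in rev clone 8 replicate 2. These 2 libraries also had the highest and the lowest composition factor in TMM scaling, 1.47 and 0.463, and the calls of members are given with and without them. Stem cell markers were expressed in every library, for example Pou5f1 at 110.8 to 166.6 CPM (counts scaled to a common library total with TMM factors, as for all CPM values here). The fibroblast markers Dcn and Postn were at 0 in every library, the other 5 fibroblast markers did not exceed 10.6 CPM (Pdgfrb), and no endoderm marker exceeded 3.23 CPM (Gata4). In bulk RNA, fewer cells, fewer mitochondrial genomes per cell and less RNA per genome cannot be told apart.

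The 3 members at 0 lay side by side. In GRCm38 (mm10) coordinates, mt-Co2 is at chrM:7013-7696, mt-Atp6 at chrM:7927-8607 and mt-Co3 at chrM:8607-9390, all on the plus strand. The 3 other protein-coding genes between mt-Co1 and mt-Nd4, namely mt-Atp8 (ATP synthase), mt-Nd3 and mt-Nd4l (both complex I), were also at 0 in every library. The empty stretch therefore spanned 3161 bases and 6 of the 13 mRNAs, while mt-Co1 on one side had 8393 to 69113 reads per library and mt-Nd4 on the other had 1215 to 10773. A count of 0 allows at most 3 counts, or 0.213 to 1.35 CPM depending on the library, for reads assigned to the gene (counting error only).

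The annotated sequences of these members at 0 were compared with all annotated nuclear transcripts. On chromosome 1, from 24611535 to 24616197, 7 pseudogenes lie on the minus strand in the order of the mitochondrial genes. Gm28661 (ENSMUSG00000102070) was identical to mt-Co2 (ENSMUSG00000064354) at 681 of 681 aligned bases, Gm10925 (ENSMUSG00000100862) to mt-Atp6 (ENSMUSG00000064357) at 678 of 678, and Gm28437 (ENSMUSG00000101111) to mt-Co3 (ENSMUSG00000064358) at 783 of 783. Beside them, Gm28438 was identical to mt-Nd3 at 344 of 345 bases and Gm10222 to mt-Nd4l at 294 of 294. For mt-Atp8 no annotated nuclear transcript aligned over 100 bases or more, and the unannotated stretch between Gm10925 and Gm28661 was not searched.

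The same block of pseudogenes reached only partly into the detected neighbours. Gm28439 matched the first 876 bases of mt-Nd4, which is 63.6% of that gene, at 876 of 876 bases, and Gm29216 matched the last 483 bases of mt-Co1 (31.3% of the gene) at 482. A second copy, Gm13340 on chromosome 2, covered all 1545 bases of mt-Co1 at 97.6% identity. Copies of the other detected members were less alike, at 92.9% for mt-Cytb (Gm11410), 93.6% for mt-Nd6 (Gm11408), at most 95.2% for mt-Nd5 (Gm4076) and 96.7% over 510 bases of mt-Nd2 (Gm13339).

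The following 60-base windows show the 3 situations side by side: a member at 0 and its identical copy, the detected mt-Co1 and the copy that differs at 1 base of its aligned part, and the detected mt-Cytb with a diverged copy. They are from GENCODE M21 transcripts, 5′ to 3′ on the transcribed strand, and capitals mark the bases that differ within a pair. The windows of mt-Co2 are chrM:7323-7382 and chr1:24615196-24615255 (minus strand), those of mt-Co1 chrM:6390-6449 and chr1:24616129-24616188 (minus strand), and those of mt-Cytb chrM:14687-14746 and chr4:80004531-80004590 (plus strand).
mt-Co2: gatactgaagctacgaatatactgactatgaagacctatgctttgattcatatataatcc
Gm28661: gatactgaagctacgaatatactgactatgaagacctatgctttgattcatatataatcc
mt-Co1: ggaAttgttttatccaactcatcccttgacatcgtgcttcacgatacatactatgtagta
Gm29216: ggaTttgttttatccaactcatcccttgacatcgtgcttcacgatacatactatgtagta
mt-Cytb: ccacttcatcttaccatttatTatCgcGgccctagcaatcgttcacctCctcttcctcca
Gm11410: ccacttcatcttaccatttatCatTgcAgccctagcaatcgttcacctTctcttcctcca

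Counted in words of 50 bases, 0% of mt-Co2, 0.475% of mt-Atp6 and 0.136% of mt-Co3 had a word found in no annotated nuclear transcript. The detected members had 37.8% (mt-Nd4), 48.9% (mt-Co1), 91.8% (mt-Nd2), 92.4% (mt-Nd5) and 100% (mt-Nd1, mt-Nd6 and mt-Cytb). Every detected member thus had a larger share of words of its own than each of the 3 at 0, while mt-Atp8 had no read although 100% of its words were its own. Words of 75 and 100 bases gave at most 0.515% for the 3 members at 0. The identical copies had few counts as well: Gm28661 had 0 to 3 per library, Gm10925 0 to 2 and Gm28437 0 to 2. Gm13341, a second copy of mt-Co2 with 95.9% identity, had 3 to 60. How reads that align to several places were handled is not given in the sources used here, and its part in the zeros was not tested.

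**Figure D1:**
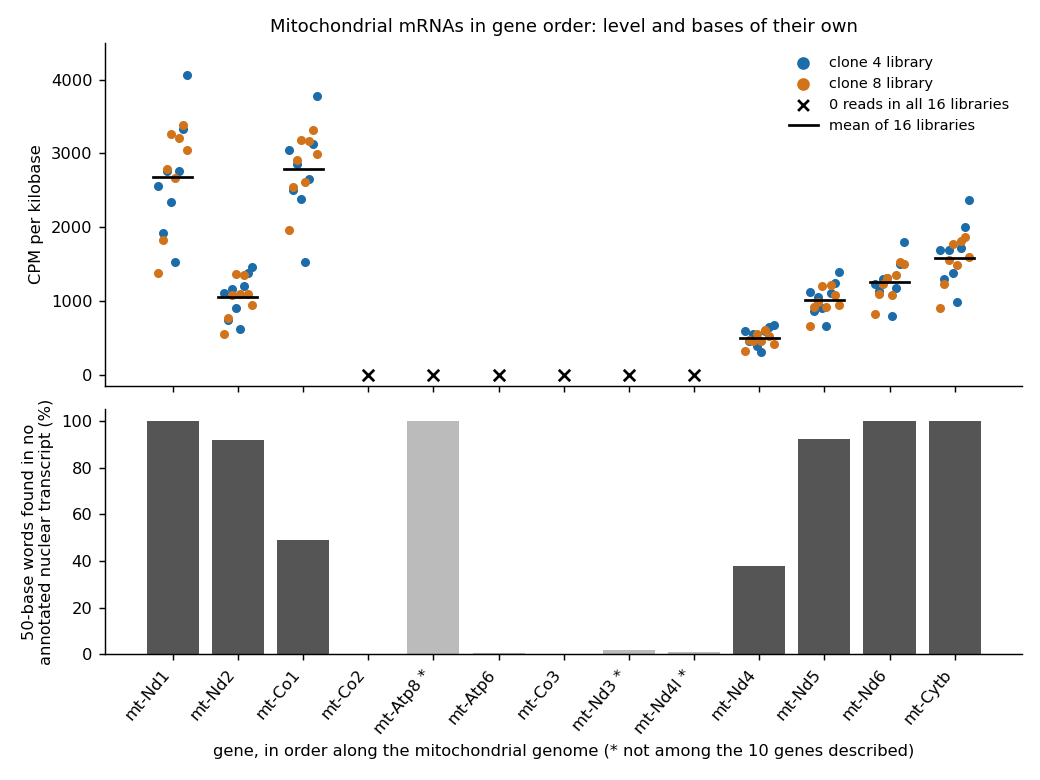
The 13 mitochondrial mRNAs in gene order, with CPM per kilobase in each of the 16 libraries (upper panel, points, line at the mean) and the percent of the gene's 50-base words found in no annotated nuclear transcript (lower panel, bars). The 6 adjacent genes from mt-Co2 to mt-Nd4l had no read in any library, and 5 of them have almost no words of their own, mt-Atp8 being the exception.

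Per length, mt-Co1 and mt-Nd1 were the most abundant of the detected members. Over the 16 libraries mt-Co1 had 2783 ± 542 CPM per kilobase (SD, n = 16) and mt-Nd1 2675 ± 732. The order of these 2 differed between the groups: mt-Co1 was above mt-Nd1 in 4 of 4 libraries of 0h, where the means were 2513 and 1919, in 3 of 4 in 2h, in 1 of 4 in 4h and in 0 of 4 in rev, where the means were 3301 and 3452. mt-Cytb followed at 1582 ± 373 and was below mt-Nd1 in all 16 libraries. mt-Nd6 had 1258 ± 257, below mt-Cytb in all 16, and exceeded mt-Nd2 (1050 ± 276) in 4 of 4 libraries of 0h and of rev, in 3 of 4 in 2h and in 1 of 4 in 4h. mt-Nd2 was below mt-Nd5 (1015 ± 201) in 4 of 4 libraries of 0h, with means of 793 and 888, and above it in 3 of 4 in each of 2h, 4h and rev. mt-Nd4 was the lowest at 499.7 ± 110 and was below mt-Nd5 in all 16. The order also depended on the length used. Per kilobase of words found in no nuclear transcript, a scale chosen after the values were seen, mt-Co1 stood at 5883. It was above mt-Nd1 (2819) in 16 of 16 libraries. On that scale mt-Nd4 stood at 1372, above mt-Nd2 (1200) in 14 of 16 libraries, and mt-Nd5 had the lowest mean (1128).

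mt-Nd6 is the only one of these mRNAs transcribed from the other strand, at chrM:13552-14070 (minus), where its end overlaps mt-Nd5 (chrM:11742-13565) by 14 bases. The strand setting of the counting is not given in the sources used here, so reads from mt-Nd6 and from the antisense transcript of the same bases cannot be told apart. Relative to the summed reads of the other 6 detected members, mt-Nd6 stood at a log2 ratio of -4.20 ± 0.11 (SD, n = 4) in 0h, -4.23 ± 0.19 in 2h, -4.32 ± 0.12 in 4h and -4.17 ± 0.11 in rev. No comparison of this ratio passed an exact permutation test over the 70 splits of 8 libraries (two-sided, lowest p = 0.114 for rev against 4h, adjusted p = 0.50 over 5 comparisons).

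Together the detected members made up 1.12 ± 0.21% of a library's counts in 0h (SD, n = 4), 1.39 ± 0.26% in 2h, 1.33 ± 0.23% in 4h and 1.36 ± 0.54% in rev. The group ranges overlapped, from 0.878 to 1.39% in 0h to 0.62 to 1.80% in rev, and the exact permutation p-values were at least 0.143. The lowest of all, 0.62%, was rev clone 8 replicate 2, the library with 80.4% of its counts in rRNA-related models. With those models left out of the denominator, the members took 2.87 ± 0.63% in 0h, 3.33 ± 0.36% in 2h, 3.00 ± 0.76% in 4h and 3.88 ± 0.60% in rev, and rev clone 8 replicate 2 stood at 3.16%.

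The levels of single members were tested with edgeR's quasi-likelihood test, fitted to 12215 genes in all 16 libraries with group and clone in the model, two-sided and with Benjamini-Hochberg adjustment over all genes tested. Comparisons share libraries: 0h enters 3 of the 5, as does 4h, and they are therefore not independent of each other. The 7 detected members all passed the filter on low counts, and the 3 at 0 did not.

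More members were called between the libraries taken after MEK inhibition and the uninduced ones than in any other comparison. In rev against 0h, 5 of the 7 tested members rose and none fell: mt-Nd1, mt-Nd2, mt-Nd5 and mt-Nd6 of complex I and mt-Cytb of complex III. The background was 12.4% of all genes called higher and 9.86% called lower in this comparison. The median log2 fold change of the 7 was 0.57, and that of all genes tested was -0.01.

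mt-Nd1 (ENSMUSG00000064341, chrM:2751-3707) had 2440, 1842, 1319 and 1745 CPM in the 0h libraries (clone 4 replicates 1 and 2, then clone 8 replicates 1 and 2). In rev it had 3184, 3881, 3235 and 2915 CPM in the same order. All 4 rev libraries were above all 4 0h libraries, and the log2 fold change was 0.85 (SE 0.16, edgeR adjusted p = 0.000197), a 1.80-fold difference.

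mt-Nd6 (ENSMUSG00000064368), the light-strand member, had 634, 586, 427 and 569 CPM in 0h. The rev libraries had 776, 932, 794 and 780.2 CPM. The groups did not overlap here either, and the log2 fold change was 0.57 (SE 0.11, edgeR adjusted p = 0.000356). Of the rev libraries, 3 lay between 776 and 794 CPM, and clone 4 replicate 2 stood apart at 932.

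mt-Cytb (ENSMUSG00000064370, chrM:14145-15288) had 1931, 1479, 1035 and 1409 CPM in 0h and 2282, 2713, 2131 and 1819 in rev. Its ranges overlapped, because the highest 0h library lay above the lowest rev library, and the log2 fold change was 0.62 (SE 0.15, edgeR adjusted p = 0.00276). mt-Nd2 (ENSMUSG00000064345, chrM:3914-4951) had 1142, 774, 578 and 799 CPM in 0h and 1431, 1512, 1134 and 974 in rev. It overlapped in the same way, with a log2 fold change of 0.62 (SE 0.17, edgeR adjusted p = 0.00845).

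mt-Nd5 (ENSMUSG00000064367) was just inside the threshold, with a log2 fold change of 0.39 (SE 0.14, edgeR adjusted p = 0.0495). mt-Co1 (ENSMUSG00000064351, chrM:5328-6872) was just outside it, with a log2 fold change of 0.39 (SE 0.15, adjusted p = 0.0566), from 3883 ± 688 CPM in 0h to 5100.4 ± 529 in rev (SD, n = 4). mt-Nd4 (ENSMUSG00000064363, chrM:10167-11544) had a log2 fold change of 0.31 (SE 0.16, adjusted p = 0.151).

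The calls of mt-Nd1, mt-Nd6, mt-Cytb and mt-Nd2 in rev against 0h passed with each of the 16 libraries left out in turn, and the number of members called ranged from 4 to 7. That of mt-Nd5 passed in 6 of these 16 fits and in 5 of the 10 other settings. Without rev clone 8 replicate 2 it was 6, and without 4h clone 4 replicate 1 also 6. With DESeq2 or without the clone term 3 were called, mt-Nd1, mt-Nd6 and mt-Cytb, and mt-Nd2 was called in 7 of those 10 settings. Scaled to library size alone, no member was called: the median of all genes tested then moved to -0.32, and the member median of 0.26 lay 0.58 above it.

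**Figure D2:**
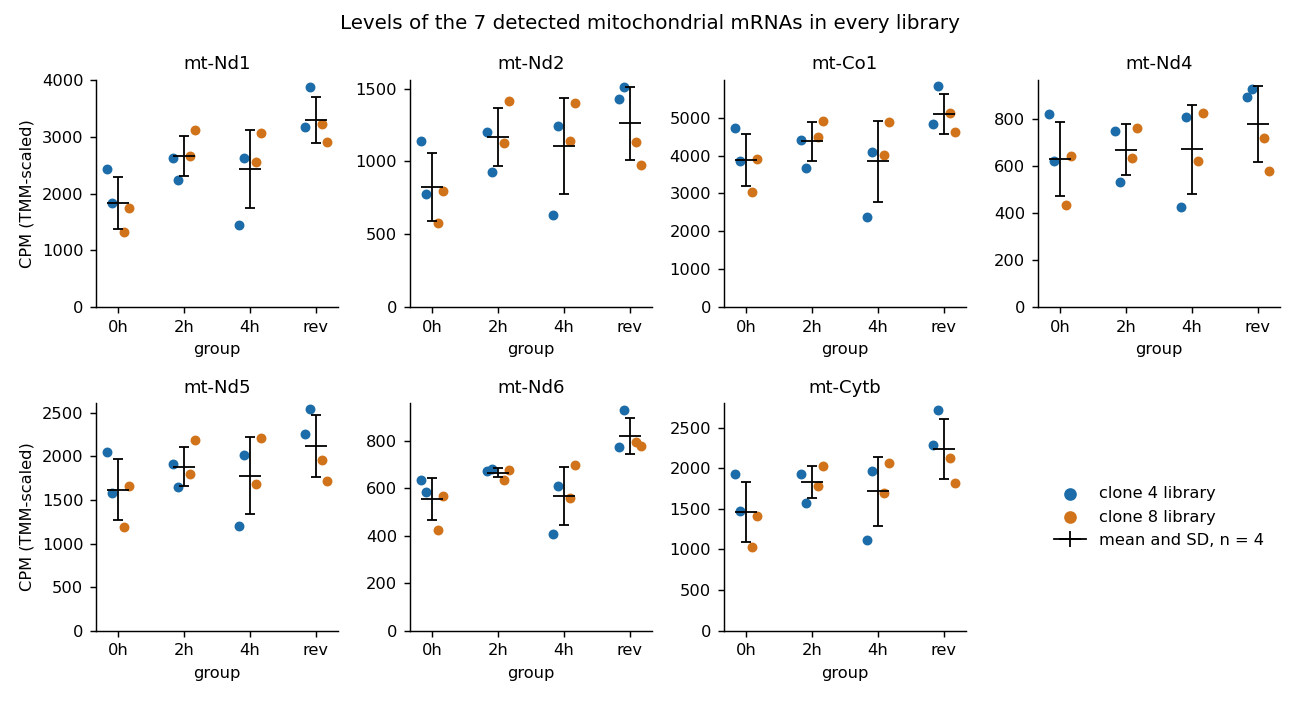
CPM of the 7 detected members in each library by group (points, coloured by clone, with mean and SD of 4 libraries). The rev libraries of mt-Nd1 (2915 to 3881 CPM) and mt-Nd6 (776 to 932 CPM) lie above all their 0h libraries, and the lowest 4h library of each member shown is from clone 4.

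MEK inhibition after 4 h of induction was compared with the 4 h libraries directly. In rev against 4h, 1 of the 7 tested members rose, mt-Nd6, and none fell, beside 7.93% of all genes called higher and 8.43% called lower. mt-Nd6 had 409, 612, 559 and 698 CPM in 4h and 776 to 932 CPM in rev. The 2 groups did not overlap, and the log2 fold change was 0.53 (SE 0.11, edgeR adjusted p = 0.000989).

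The remaining 6 members had positive log2 fold changes that did not pass, from 0.19 (SE 0.17, edgeR adjusted p = 0.509) for mt-Nd2 to 0.45 (SE 0.16, adjusted p = 0.0508) for mt-Nd1. In clone 4 the log2 difference of means was positive for all 7 members, from 0.62 (mt-Nd5) to 0.84 (mt-Nd1). In clone 8 it was -0.27 for mt-Nd2, -0.15 for mt-Nd4 and -0.07 for mt-Nd5. The other members in clone 8 ranged from 0.07 (mt-Cytb) to 0.33 (mt-Nd6). Scaled to library size alone, which moved the median of all genes to -0.41, mt-Nd2, mt-Nd4 and mt-Nd5 stood at -0.16, -0.15 and -0.12. The call of mt-Nd6 passed with each of the 16 libraries left out in turn. It was lost with library size alone and when the percent of rRNA-related counts was added to the model. The number of members called reached 4 without rev clone 8 replicate 2, without 4h clone 8 replicate 2, without 0h clone 4 replicate 1 and without 0h clone 8 replicate 1, and was 2 without 0h clone 8 replicate 2 and without 2h clone 8 replicate 2. Without 4h clone 4 replicate 1, the lowest 4h library for all 7 members, the log2 fold change of mt-Nd6, the one member then called, was 0.37 (adjusted p = 0.00939) and those of mt-Nd2 and mt-Nd4 were -0.05 and 0.00 (adjusted p = 0.875 and 0.996).

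All 9 rRNA-related models tested had positive TMM-scaled log2 fold changes in both comparisons of rev, as the 7 members did. As a percent of library counts, the 11 rRNA-related models did not rise in clone 4 from 0h (62.1 and 63.4%) to rev (55.1 and 62.2%). In clone 8 they went from 58.6 and 58.8% in 0h to 65.9 and 80.4% in rev. In 4h they held 42.0 and 51.7% in clone 4 and 60.4 and 62.4% in clone 8. The mitochondrial rRNAs mt-Rnr1 and mt-Rnr2, the RNA components of the mitochondrial ribosome, were called higher in rev against 4h, with log2 fold changes of 0.66 (SE 0.18, adjusted p = 0.0101) and 0.73 (SE 0.19, adjusted p = 0.00602). Of the 9 rRNA-related models tested, these 2 included, 5 were called higher and none lower, beside 7.93% and 8.43% of all genes. Against 0h, mt-Rnr1 was higher in rev by 0.60 (SE 0.18, adjusted p = 0.0145) and mt-Rnr2 by 0.61 (SE 0.19, adjusted p = 0.0175) on the log2 scale. Here 3 of the 9 models were called higher, beside 12.4% of all genes. Without 4h clone 4 replicate 1, 1 of the 2 mitochondrial rRNAs was called in rev against 4h, and without 0h clone 8 replicate 1 neither was in rev against 0h. With library size alone neither was called in either comparison (0.28 for both in rev against 0h). When the percent of rRNA-related counts was added to the model, which was decided after the data were seen, no member was called in rev against 4h and 4 were called in rev against 0h. These rRNA reads are what remained after a depletion step, and the part of that step in the members' values was not tested.

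The mRNAs were also set against the mitochondrial rRNAs, which come from the same genome. For every 100 reads of mt-Rnr1 and mt-Rnr2 there were 13.3 ± 1.2 member reads in 0h (SD, n = 4), 14.5 ± 2.1 in 2h, 15.9 ± 1.2 in 4h and 12.8 ± 1.4 in rev. The 4h libraries (14.5 to 17.4) lay above the rev libraries (10.9 to 14.1), and no test was made of this ratio. Its denominator is the rRNA left after depletion, and the part of that step in the ratio was not tested.

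Subunits of the same complexes that are encoded in the nucleus were counted in each comparison. Of 80 nuclear oxidative phosphorylation genes tested, from a list written with earlier results of these data known, none was called higher, 26 (32.5%) were called lower and 54 were not called in rev against 4h, with a median log2 fold change of -0.25 (all genes 0.01), where 8.43% of all genes were lower. By complex, the numbers called lower were 6 of 37 for complex I, 2 of 4 for complex II (which has no mitochondrial-genome subunit), 3 of 10 for complex III, 8 of 12 for complex IV and 7 of 17 for the ATP synthase.

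The called gene with the largest change was taken from each complex. Cox7b of complex IV went from 35.7 ± 2.4 CPM in 4h to 21.3 ± 2.2 in rev (SD, n = 4), and its log2 value fell by 0.77 (SE 0.12, edgeR adjusted p = 1.01e-05). Uqcrh of complex III fell by 0.56 on the log2 scale (SE 0.16, adjusted p = 0.0112), Ndufa11 of complex I by 0.51 (SE 0.12, adjusted p = 0.00414), Sdhc of complex II by 0.33 (SE 0.11, adjusted p = 0.0411) and Atp5mpl of the ATP synthase by 0.60 (SE 0.19, adjusted p = 0.0313). In rev against 0h, 23 (28.75%) of the 80 were lower and none higher, with a median of -0.24 and beside 9.86% of all genes lower, led by Atp5e of the ATP synthase, which fell by 0.91 (SE 0.24, adjusted p = 0.00595).

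No library left out brought this count to 0 in either comparison. It ranged from 14 (without rev clone 4 replicate 1) to 30 in rev against 4h, where it was 15 without 4h clone 4 replicate 1, and from 16 to 32 in rev against 0h, where 1 was called higher without 0h clone 4 replicate 1 or rev clone 4 replicate 1. Under all other settings tried, 11 to 39 were lower in rev against 4h and 13 to 28 in rev against 0h, with none higher in either, and the lowest count of each was that without the clone term. Scaled to library size alone, 39 of the 80 were lower in rev against 4h, with a median of -0.68 where that of all genes was -0.41. During induction few were called: 5 lower and none higher in 2h against 0h, 2 higher and 1 lower in 4h against 0h, and 2 higher and none lower from 2h to 4h. The share called was below that of all genes each time, and no call was left with library size alone. The difference in direction between the 7 members and the 80 nuclear subunits was not tested as such.

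**Figure D3:**
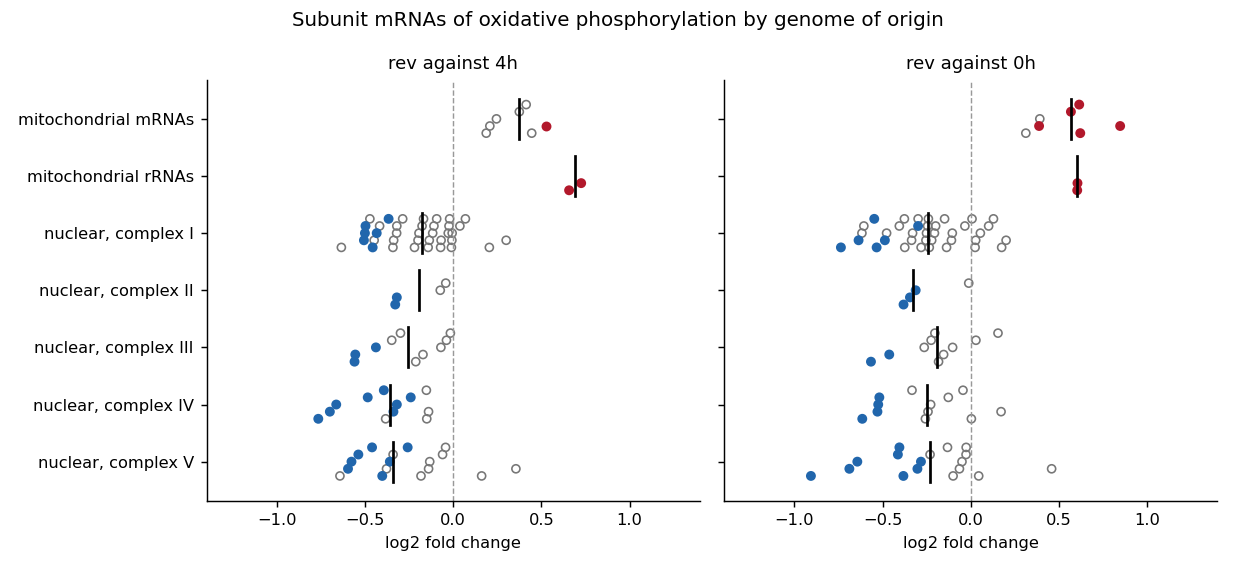
Log2 fold changes in rev against 4h and rev against 0h of the 7 detected mitochondrial mRNAs, the 2 mitochondrial rRNAs and 80 nuclear subunits by complex (points; filled where the adjusted p was under 0.05, red higher and blue lower; line at the group median). All 7 mitochondrial mRNAs lie to the right of 0 in both panels, and every called nuclear subunit lies to the left.

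Nuclear genes of mitochondrial gene expression were counted in the same way. Of 77 mitochondrial ribosomal protein genes tested, 10 (12.99%) were lower and none higher in rev against 4h, beside 8.43% of all genes lower, led by Mrpl14, which fell by 1.00 (SE 0.29, adjusted p = 0.0148). That count was 22 with library size alone and 5 without the clone term, 9 without 4h clone 4 replicate 1, 11 without rev clone 8 replicate 2 and 6 without rev clone 4 replicate 2 or rev clone 8 replicate 1. In rev against 0h 5 (6.49%) were lower, a smaller share than the 9.86% of all genes. Of 14 genes of mitochondrial transcription and DNA maintenance, none was called in rev against 4h (3 at an unadjusted p under 0.05, and none called with DESeq2) and 1 (7.14%) was called higher in rev against 0h, a smaller share than the 12.4% of all genes. It was Twnk, the mitochondrial DNA helicase, at 0.56 (SE 0.10, adjusted p = 0.000187). Scaled to library size alone, 4 of the 14 were lower in rev against 4h and none was called in rev against 0h. Of 19 genes of mitochondrial RNA processing, 1 was higher and 3 were lower in rev against 4h. The number lower was 1 without 4h clone 4 replicate 1, 4h clone 8 replicate 1 or rev clone 8 replicate 2, and 0 without rev clone 4 replicate 1. In the reported fit the one that rose was Fastk, whose mitochondrial form is known to be needed for the mt-Nd6 mRNA (0.35, SE 0.09, adjusted p = 0.00906). The largest fall was in Trmt10c, a subunit of the mitochondrial RNase P (-0.50, SE 0.13, adjusted p = 0.00637). Over the 10 other settings 0 to 1 of the 19 were called higher and 0 to 4 lower. Against 0h, 3 were higher and 2 lower in rev (2 and 1 without rev clone 8 replicate 2 or 0h clone 4 replicate 2, and 0 and 1 with library size alone), shares of 15.8% and 10.5% near the 12.4% and 9.86% of all genes, led by Elac2, which cuts the 3′ ends of mitochondrial tRNAs out of the precursor (0.74, SE 0.10, adjusted p = 2.03e-06).

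Induction itself was compared first at 2 h. In 2h against 0h, 2 of the 7 members rose and none fell, beside 11.4% of all genes called higher and 9.68% called lower. These were the complex I mRNAs mt-Nd1 and mt-Nd2, which are neighbours on the precursor with only tRNA genes between them. mt-Nd1 had 2636, 2245, 2672 and 3119 CPM in 2h, and its log2 fold change was 0.54 (SE 0.16, edgeR adjusted p = 0.0139). mt-Nd2 had 1200.3, 931, 1124 and 1412 CPM in 2h, with a log2 fold change of 0.52 (SE 0.17, adjusted p = 0.0291). The log2 difference of means was smaller in clone 4 (0.20 for mt-Nd1, 0.17 for mt-Nd2) than in clone 8 (0.93 and 0.89), and the test of that difference did not pass the adjustment (edgeR adjusted p = 0.342 and 0.372).

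Both overlapped with 0h through 0h clone 4 replicate 1, the highest 0h library. mt-Nd6 did not overlap, with 636 to 681 CPM in 2h above 427 to 634 in 0h, but did not pass the test (log2 fold change 0.27, SE 0.11, adjusted p = 0.0833). The 4 remaining members had log2 fold changes of 0.11 (mt-Nd4) to 0.33 (mt-Cytb) and did not pass. No member was called without 0h clone 8 replicate 1 or without 2h clone 8 replicate 2, 4 were called without 0h clone 4 replicate 1 or without 4h clone 4 replicate 1, and 1 was called without 0h clone 4 replicate 2, 0h clone 8 replicate 2, 2h clone 4 replicate 1 or 2h clone 8 replicate 1. Without rev clone 8 replicate 2 mt-Nd1 and mt-Nd2 were called. DESeq2 called none, nor did edgeR without the clone term or with library size alone.

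In 4h against 0h mt-Nd1 and mt-Nd2 were again called higher and no member lower, beside 17.2% of all genes called higher and 16.8% called lower. The log2 difference of means was negative for every detected member in clone 4, from -0.45 (mt-Co1) to -0.08 (mt-Nd2). In clone 8 it was positive for every one, from 0.34 (mt-Nd6) to 0.90 (mt-Nd2). mt-Nd1 had 1455, 2638, 2555 and 3072 CPM in 4h, with a log2 fold change of 0.40 (SE 0.16, edgeR adjusted p = 0.0486), and mt-Nd2 had 635, 1243, 1139 and 1402 CPM, with a log2 fold change of 0.43 (SE 0.17, adjusted p = 0.0487). Both sat at the threshold, and with 1 library left out no member was called in 11 of 16 cases. Without rev clone 8 replicate 2 mt-Nd2 alone was called. None was called with DESeq2, with the replicate block, without the clone term, with only the 2 groups in the fit or with library size alone. Without 4h clone 4 replicate 1, which had the lowest 4h value of both, 3 members were called and the log2 fold change of mt-Nd1 was 0.61 (adjusted p = 0.000697). That library also had the lowest percent of rRNA-related counts, 42.0%. The direction of mt-Co1 (-0.02) turned to 0.07 when scaled to library size alone.

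Between 2 and 4 h of induction no member was called, at an unadjusted p under 0.05 for 1 of the 7 (mt-Nd6, log2 fold change -0.23, SE 0.11, edgeR adjusted p = 0.234), beside 3.8% of all genes called higher and 3.52% called lower. DESeq2 also called none. Without 4h clone 8 replicate 2, mt-Nd6 was called lower, and none was called without 4h clone 4 replicate 1 or without rev clone 8 replicate 2.

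Nuclear genes known for mitochondrial biogenesis were also counted during induction. Of 8 tested, 5 were higher and 2 lower in 2h against 0h, beside 11.4% and 9.68% of all genes, and 6 were higher in 4h against 0h, beside 17.2%. None was called in either comparison with library size alone, and 3 were higher in each without the clone term. Without 0h clone 8 replicate 2 none was lower at 2h. Among them were Pprc1, a coactivator of the PGC-1 family (0.43, SE 0.08, adjusted p = 0.000117 at 2h), and Ppargc1b, which fell by 0.86 at 2h (SE 0.25, adjusted p = 0.0112) and rose by 0.61 at 4h (SE 0.21, adjusted p = 0.0265) from 4.03 CPM in 0h.

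Of the 14 genes of mitochondrial transcription and DNA maintenance, 3 were higher and 1 lower (21.4% and 7.14%) in 2h against 0h, and as many in 4h against 0h, beside the shares of all genes just given and 16.8% lower at 4 h. With library size alone 1 was higher at 2h and 2 at 4h, and none was lower. Tfb2m, the initiation factor of the mitochondrial RNA polymerase, rose by 0.95 at 2h (SE 0.21, adjusted p = 0.00108) and by 0.92 at 4h, from 3.09 CPM in 0h to 6.68 and 6.13. The gene that fell at 2h was Polrmt, the polymerase itself (-0.35, SE 0.12, adjusted p = 0.0375), and the one at 4h was Tfb1m, a methyltransferase of the mitochondrial small rRNA (-0.50, SE 0.19, adjusted p = 0.0406). Neither was called with DESeq2 or without the clone term, and with 1 library left out these calls were lost in 5 and 6 of 16 cases. Of the 19 RNA processing genes, 4 (21.1%) were higher in each comparison and 1 was lower at 2h, Fastkd1 (-0.48, SE 0.14, adjusted p = 0.0152). Elac2 rose by 0.79 at 4h (SE 0.10, adjusted p = 1.01e-07). Scaled to library size alone, 0 were higher at 2h and 1 at 4h, and without 0h clone 8 replicate 2 there were 2 in each, as there were at 2h without 2h clone 8 replicate 2.

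The mixture of mRNAs within the pool of 7 does not depend on how libraries are scaled. mt-Nd1 took 17.8, 17.1, 16.5 and 16.2% of the pool in 0h. It took 19.5, 19.9, 20.3 and 20.7% in 2h, 19.1, 19.7, 20.8 and 20.2% in 4h and 20.3, 21.2, 21.4 and 21.8% in rev. Every library after induction had a larger share of mt-Nd1 than every uninduced library, with differences in means of 3.21, 3.06 and 4.27 percentage points against 0h.

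mt-Co1, the most abundant member of the pool, had a lower mean share in the 3 later groups than in 0h. Its share of the pool was 34.3, 35.96, 37.8 and 36.5% in 0h, 32.6, 32.6, 34.2 and 32.5% in 2h, 31.0, 30.6, 32.8 and 32.2% in 4h and 30.9, 31.8, 34.0 and 34.4% in rev. Neither the 2h nor the 4h libraries overlapped with 0h, while 1 rev library lay above the lowest 0h library. mt-Nd2 had 7.54 ± 0.53% in 0h (SD, n = 4) and 9.03 ± 0.47% in 4h, and mt-Nd5 had 15.0 ± 0.3% in 0h, 14.2 ± 0.4% in 2h and 13.5 ± 0.8% in rev, in each case without overlap with 0h.

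Exact permutation tests over the 70 splits of 8 libraries gave p = 0.0286, the smallest this design can give, for mt-Nd1 in all 3 comparisons with 0h, for mt-Co1 and mt-Nd5 in 2 of them each (mt-Co1 at 2h and 4h, mt-Nd5 at 2h and rev) and for mt-Nd2 at 4h. After Benjamini-Hochberg adjustment over the 35 comparisons of the 7 detected members none passed (adjusted p = 0.125 for these 8). The share of mt-Cytb had p-values of 0.114 or more over these splits, and so did that of mt-Nd6. Exchanging labels only within a clone allows 36 splits and a smallest p of 0.0556. The 8 comparisons named above all reached that p. So did mt-Cytb when 4h was set against 0h or 2h, and rev against 0h. mt-Nd4 reached it in 2h and rev against 0h, mt-Nd1 and mt-Nd5 in rev against 4h and mt-Co1 in rev against 0h. The adjusted p was 0.121 for each of these. Its share was higher in both clones in these 3 comparisons, by 0.211 to 0.812 points.

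**Figure D4:**
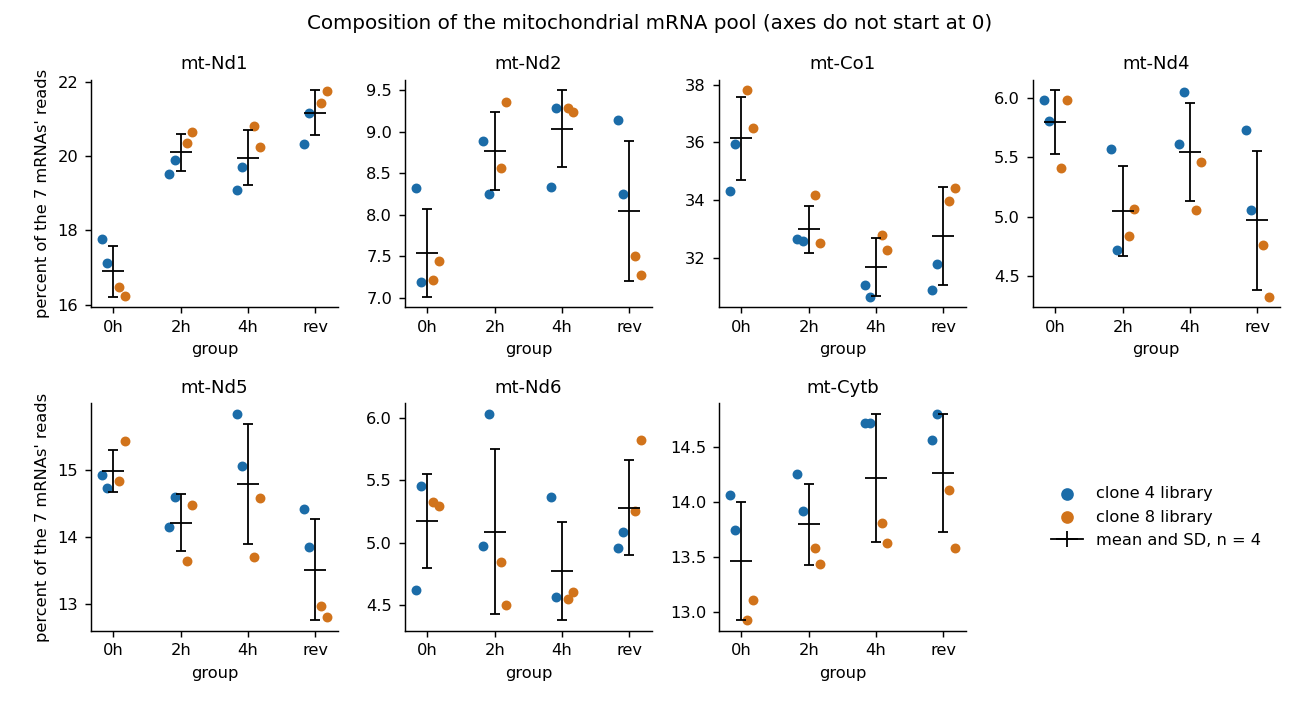
Percent of the reads of the 7 detected mitochondrial mRNAs that each one took, by library and group (points, coloured by clone, with mean and SD of 4 libraries). mt-Nd1 lies at 16.2 to 17.8% in 0h and at 19.1 to 21.8% in every other library, and mt-Co1 lies at 34.3 to 37.8% in 0h, overlapping with rev (30.9 to 34.4%).

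The clones were compared over all groups. None of the 7 was called between clone 8 and clone 4, beside 16.1% of all genes called higher and 14% called lower in clone 8. The log2 differences ranged from -0.14 (mt-Nd4, SE 0.10, edgeR adjusted p = 0.281) to 0.06 (mt-Co1, SE 0.09, adjusted p = 0.649), and 0 of the 7 had an unadjusted p under 0.05. With library size alone mt-Nd4 was called lower in clone 8 and mt-Co1 stood at -0.18, and without 4h clone 4 replicate 1 mt-Nd4 and mt-Cytb were called lower and mt-Co1 stood at -0.031.

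The responses of the clones were compared next. For mt-Nd1, the log2 difference of means in 4h against 0h was -0.11 in clone 4 and 0.88 in clone 8, and all 7 members had a positive difference of responses in a model with a mean for each group and clone, from 0.59 (mt-Nd6, SE 0.20) to 0.94 (mt-Nd1, SE 0.26). All 7 had an unadjusted p under 0.05, and none passed the adjustment (edgeR, lowest adjusted p = 0.0951 for mt-Nd1). In that comparison 0.311% of all genes were called. Scaled to library size alone, the differences ranged from -0.03 (mt-Nd6) to 0.34 (mt-Nd1), with p-values of 0.414 or more. Without 4h clone 4 replicate 1, the lowest 4h library for all 7 members, they ranged from 0.27 (mt-Nd4) to 0.58 (mt-Nd1), with a lowest adjusted p of 0.48. Without 4h clone 4 replicate 2 that low library alone stood for clone 4 at 4h, assumed to vary like the others, and all 7 were called (0.92 to 1.48). Without 0h clone 4 replicate 2, mt-Nd1 and mt-Nd2 were called (1.13 and 1.16). For rev against 4h the differences of response were negative for all 7, from -0.91 (mt-Nd2, SE 0.27, adjusted p = 0.60) to -0.42 (mt-Nd6, SE 0.20, adjusted p = 0.808), beside 0.00819% of all genes called. They ranged from -0.50 to -0.14 without 4h clone 4 replicate 1 and from -0.81 to -0.40 without rev clone 8 replicate 2, with none called, while without 4h clone 4 replicate 2 mt-Nd1, mt-Nd2 and mt-Nd4 were called. No member was called for 2h against 0h, although 5 of the 7 had an unadjusted p under 0.05 and all 7 differences were positive, from 0.25 (mt-Nd6) to 0.73 (mt-Nd1), beside 0.0901% of all genes called. The lowest p there was 0.123 with library size alone. None was called either for the step from 2h to 4h (0.0327%) or for rev against 0h (0.0573%).

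Over the 16 libraries the members moved together. The Pearson r of log2 CPM between pairs of detected members ranged from 0.756 to 0.972 over 21 pairs. Between members and the 2 mitochondrial rRNAs it ranged from 0.656 to 0.976 over 14 pairs. mt-Nd6 had 0.976 and 0.951 with mt-Rnr1 and mt-Rnr2, and 0.756 to 0.914 with the other members. mt-Nd2 had 0.72 and 0.656 with the 2 rRNAs. These points share the library and its scaling, and the r values are given as a description. Among 8627 nuclear genes outside the rRNA-related models with a mean of at least 5 CPM, the 5 whose log2 CPM was most like the mean of the members were Sp2 (r = 0.878), Setd1a (0.864), Samd4b (0.855), Ncoa6 (0.852) and Wiz (0.848).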

How the data were processed

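RNA from 16 libraries was analysed from the deposited table, whose values are raw read counts per gene, per the values themselves (all whole, and summing to unequal library totals). Per the submitters' processing notes, bcl2fastq 2.19.1, STAR 2.5.3a and mm10 were used. The counting tool, annotation, strand setting, read length and treatment of reads with several alignments are not given in the sources used here. Of 52636 identifiers, 52489 were matched to GENCODE M21 (GRCm38), which gave symbols, positions and transcript sequences. Copies of members were searched among 141730 transcripts with BLAST (at least 90% identity over 100 bases) and as shared words of 50, 75 and 100 bases.

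Counts were filtered with filterByExpr (12215 genes left), scaled with TMM factors (0.463 to 1.47) and fitted in edgeR 4.0.16 under R 4.3.3 (glmQLFit, glmQLFTest) with group and clone. Genes were called at an adjusted p under 0.05. Standard errors were taken as the log2 fold change over the root of F. Shares were compared with exact permutation tests. Named genes were all members and, per list and comparison, the called gene with the largest change in each direction. Alternatives were RLE factors, library size alone, TMM from nuclear genes outside the rRNA-related models, 2 other filters, no clone covariate, a replicate block, only the 2 groups compared, DESeq2 1.42.0 and leaving out each library. A covariate for rRNA-related counts, other word lengths, clone comparisons with each library left out and a fit scaled to the member reads were chosen after seeing the data. The members and lists were chosen with earlier results of these data known. Replicates of a clone differed beyond counting noise. Same-numbered libraries did not deviate together (mean r 0.0133 over 12 pairs), so replicate numbers were not treated as pairs. The steps were tested on simulated data.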

Additional observations from a re-analysis of the deposited data

Results flagged for a closer look

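Within groups of 4 libraries, 1 value stood far from the other 3 in 5 of 64 groups examined (16 measures in 4 groups), by Dixon's test at its 95% critical value. Chance flags about 1 in 20 groups. For mt-Nd6, rev clone 4 replicate 2 had 932.0 CPM where the other rev libraries had 776.24 to 793.95. 4h clone 4 replicate 1, the library with the lowest rRNA-related percent, had 8.34% of the member pool in mt-Nd2 (others 9.24 to 9.28%), 5.36% in mt-Nd6 (others 4.55 to 4.60%) and a log2 ratio of mt-Nd6 to the other members of -4.14 (others -4.39 to -4.37). For mt-Co1, 2h clone 8 replicate 1 had 34.2% of the pool, where the others had 32.5 to 32.6%.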

How the results depend on the processing

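The detected members had at least 1215 reads in every library, and what depth and the spread between 4 libraries each add to the errors was not tested. In rev against 0h and rev against 4h every setting that called a member called it higher, but the number called varied, and the cause was not tested. Members called higher numbered 0 in 2h against 0h (2 in the reported fit) with DESeq2, library size alone or no clone term, and 5 without a low-count filter. In 4h against 0h (reported 2) they numbered 0 with each of these 3 settings, with only the 2 groups compared and with the replicate block. In rev against 4h (reported 1) they numbered 0 with library size alone and with the rRNA covariate, 5 without a filter and 4 with only the 2 groups compared. In rev against 0h (reported 5) they numbered 0 with library size alone, and 3 with DESeq2 or no clone term. In 4h against 2h 1 member was called lower without a filter, and with library size alone 1 was called lower in clone 8 than in clone 4. No reversal concerned a called member.

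The replicate block, which pairs libraries by a shared number only, changed no count but that in 4h against 0h; same-numbered deviations correlated between -0.318 and 0.21. With 1 library left out, members called higher ranged from 0 to 4 in 2h against 0h, 0 to 3 in 4h against 0h, 1 to 4 in rev against 4h and 4 to 7 in rev against 0h, and members called lower from 0 to 1 in 4h against 2h. Between clones, 0 to 2 members were called lower in clone 8, 0 to 7 differed in the response of 4h against 0h and 0 to 3 in that of rev against 4h, and mt-Co1 in clone 8 against clone 4 ranged from -0.031 to 0.17, an alternative added after the data were seen. With library size alone mt-Co1 was at -0.18 there, and the response difference of mt-Nd6 in 4h against 0h was -0.027.

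The response difference of mt-Nd6 that turned was 0.59 (SE 0.20) in the reported fit. With library size alone the log2 fold change was 0.069 for mt-Co1 in 4h against 0h, 0.055 for mt-Nd4 in 4h against 2h, and -0.16, -0.15 and -0.12 for mt-Nd2, mt-Nd4 and mt-Nd5 in rev against 4h. With the rRNA covariate it was 0.067 for mt-Co1 in 4h against 0h and 0.0059 for mt-Nd4 in 4h against 2h, and with DESeq2 0.0047 for the latter. With 1 library left out, ranges crossed 0 for mt-Co1 (-0.15 to 0.17), mt-Nd4 (-0.043 to 0.31) and mt-Nd6 (-0.082 to 0.19) in 4h against 0h, for mt-Nd4 in 2h against 0h (-0.029 to 0.24), for mt-Nd2 (-0.048 to 0.34) and mt-Nd4 (-0.0028 to 0.36) in rev against 4h, and in 4h against 2h for mt-Cytb (-0.22 to 0.092), mt-Nd1 (-0.28 to 0.061), mt-Nd2 (-0.24 to 0.13), mt-Nd4 (-0.16 to 0.19) and mt-Nd5 (-0.23 to 0.086).

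Among shares, the difference in the members' percent of counts ranged from -0.155 to 0.066 points in 4h against 2h and from -0.119 to 0.273 in rev against 4h. The log2 ratio of mt-Nd6 ranged from -0.12 to 0.029 in 2h against 0h and from -0.025 to 0.063 in rev against 0h. Pool shares ranged from -0.151 to 0.274 points (mt-Cytb, rev against 4h), -0.431 to 0.144 (mt-Nd1, 4h against 2h), -0.535 to 0.178 (mt-Nd5, 4h against 0h), -0.401 to 0.112 (mt-Nd6, 2h against 0h) and -0.0789 to 0.215 (mt-Nd6, rev against 0h). An edgeR fit of all genes with each library scaled to its member reads called no member in any comparison. It called 15.0% of all genes in rev against 4h and 42.9% in rev against 0h. Of the members, 0 had an unadjusted p under 0.05 (lowest 0.177, lowest adjusted p 0.235, for mt-Nd1 in rev against 0h). The SE was 0.24 for every member in every comparison, a spread shared with the other genes rather than that of the pool shares. Differences of the size seen in the pool shares, such as 0.32 for mt-Nd1 in rev against 0h (log2), could not pass. No conclusion on the shares is drawn from this fit. Per kilobase of words with no nuclear copy, mt-Co1 moved to 5883 and mt-Nd4 to 1372 CPM.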

Other observations

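Of the 22 mitochondrial tRNA genes, 9 had any read, with at most 86 counts in a library (mt-Tp), and mt-Tp and mt-Tc were the only ones with reads in all 16. Both are annotated on the minus strand, like mt-Nd6, as are mt-Tn and mt-Te, which had reads in 15 and 14 libraries. The other tRNA genes on that strand had few or none: mt-Tq and mt-Ta were at 0 in 14 libraries each, and mt-Ty and mt-Ts1 in all 16. The pseudogene Gm28438, which matches mt-Nd3 at 344 of 345 bases, had 5 to 57 counts per library, the most of the chromosome 1 block, and Gm13341 on chromosome 2, which covers mt-Co2 at 95.9% identity, had 3 to 60.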
